A study of Mus musculus with 12 samples.

Results

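The 10 genes described here encode the apolipoproteins of liver lipoproteins (Apoa1, Apoa2, Apoa4, Apoa5, Apob, Apoc1, Apoc3, Apoe and Apom) and Mttp, the transfer protein that loads lipid onto apolipoprotein B. They were taken by name, and all 10 were among the 19938 genes measured, each with 1 probeset. Their mRNA was quantified in 6 Ppara-/- and 6 Ppara+/+ mouse fetuses, in whole liver taken at embryonic day E19.5, just before birth. Ppara encodes PPARα, a nuclear receptor that is activated by fatty acids. The Ppara-/- fetuses carried a constitutive null allele in all tissues, and no fetus was treated. Both genotypes came by cesarean section from matings of heterozygous mice. The labels give the strain as SV129, whereas the methods of the study give a C57BL/6 background.

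Apolipoproteins are the protein coat of lipoproteins, the particles that carry triglyceride and cholesterol in blood. In the endoplasmic reticulum of the hepatocyte, MTP (Mttp) lipidates apolipoprotein B as it is made, which yields very low-density lipoprotein (VLDL). The smaller exchangeable apolipoproteins join these particles or high-density lipoprotein (HDL), where they activate or inhibit lipases and serve as receptor ligands. In mice, as in humans, Apoa1, Apoc3, Apoa4 and Apoa5 lie side by side in one gene cluster, and Apoc1 and Apoe lie in another. Synthetic PPARα ligands are known to alter the expression of several of these genes in adult liver, with differences between rodents and humans.

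Values are log2 signals of an Affymetrix array, so that a difference of 1 is a doubling, and every difference is Ppara-/- minus Ppara+/+. A gene is said to have risen, fallen or been called where its p-value from limma, adjusted by Benjamini-Hochberg over all genes, was under 0.05. By this rule 1443 of 19938 genes were called (7.24%), 761 of them lower (3.82%) and 682 higher (3.42%) in Ppara-/- livers. Array medians ranged from 6.71 to 6.75. The targeted gene, Ppara, measured 9.66 to 9.94 in Ppara-/- livers and 10.71 to 10.95 in Ppara+/+ livers, 2.01-fold lower (adjusted p = 3.6e-08). High Xist marked 5 of 6 Ppara-/- and 3 of 6 Ppara+/+ fetuses as female. The labels also number the animals, and the 6 lowest numbers belong to Ppara-/- mice 1 and 2 and Ppara+/+ mice 1 to 4, the 6 highest to Ppara-/- mice 3 to 6 and Ppara+/+ mice 5 and 6. Leaving out single livers moved the number of called genes between 851 (without Ppara-/- mouse 5) and 2521 (without Ppara-/- mouse 1).

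Of the 10 genes, 2 fell in Ppara-/- livers, Apoa4 and Apoa5, beside 3.82% of all genes called lower, and 0 rose, beside 3.42% called higher. By limma's unadjusted p under 0.05, 3 were lower (Apoa4, Apoa5 and Apoc1) and 0 higher. The other 8 genes, all but Apoa4 and Apoa5, were not called, and the 95% intervals of these 8 differences lay between -0.47 and 0.15. The median difference of the 10 genes was -0.06, beside 0.01 for all genes. In 0 of the 10 genes did all Ppara-/- livers lie outside the range of the Ppara+/+ livers, whereas all lay below in 2.29% and all above in 1.3% of all genes. RNA was taken from whole liver, so fewer hepatocytes and less RNA per hepatocyte cannot be told apart. Of 10 hepatocyte markers, among them albumin and transthyretin, 0 were called by limma (1 at an unadjusted p under 0.05). Their mean level ran from 13.20 to 13.25 in Ppara-/- and from 13.19 to 13.26 in Ppara+/+ livers, beside a highest signal of 13.91. Array signals flatten this high, so these markers could miss a change in the share of hepatocytes.

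**Figure D1:**
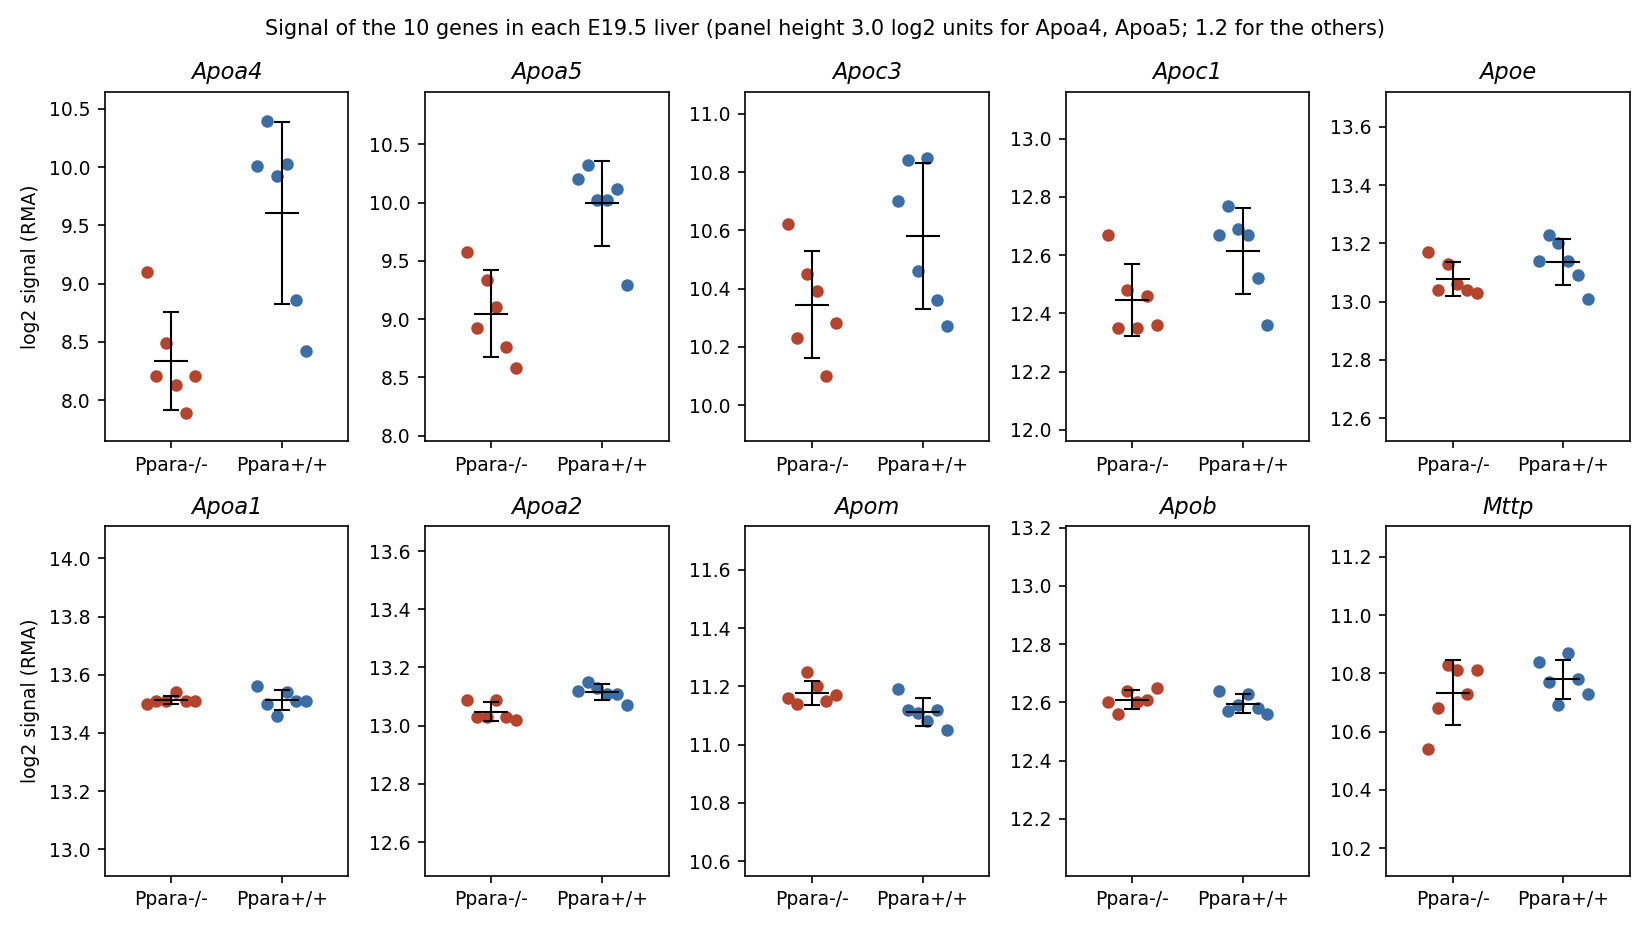
Log2 signal (y axis) of each of the 10 genes in the 6 Ppara-/- livers (red, left) and 6 Ppara+/+ livers (blue, right), mice 1 to 6 from left to right within a group, with the mean and SD in black. Apoa4 and Apoa5 lie lower in most Ppara-/- livers, with Ppara+/+ mice 5 and 6 low for Apoa4 and mouse 6 low for Apoa5.

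The 2 genes that fell are next to each other on chromosome 9. To show the DNA in front of them, the 250 bases before each annotated start are given from RefSeq (GRCm38.p6, all on the plus strand), together with those of Apoa1, the cluster member with the smallest difference. Apoa4 starts after chr9:46240594-46240843, Apoa5 after chr9:46268358-46268607 and Apoa1 after chr9:46228380-46228629. Capitals mark matches to the motifs searched.
Apoa4: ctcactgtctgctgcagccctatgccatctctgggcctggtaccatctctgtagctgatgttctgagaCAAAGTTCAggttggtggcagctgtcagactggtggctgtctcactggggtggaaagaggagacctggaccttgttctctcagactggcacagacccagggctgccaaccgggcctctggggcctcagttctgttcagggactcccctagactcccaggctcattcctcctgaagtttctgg
Apoa5: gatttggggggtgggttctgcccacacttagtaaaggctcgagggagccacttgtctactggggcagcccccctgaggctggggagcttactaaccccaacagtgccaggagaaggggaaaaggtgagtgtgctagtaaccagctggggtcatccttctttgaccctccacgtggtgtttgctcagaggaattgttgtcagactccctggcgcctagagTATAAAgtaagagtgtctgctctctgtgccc
Apoa1: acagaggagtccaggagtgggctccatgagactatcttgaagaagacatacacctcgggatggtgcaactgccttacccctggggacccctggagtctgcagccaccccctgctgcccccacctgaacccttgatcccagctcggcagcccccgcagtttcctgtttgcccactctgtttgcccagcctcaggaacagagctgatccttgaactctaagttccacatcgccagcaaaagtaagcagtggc

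The motifs were searched on both strands of 300-base windows, 250 bases before and 50 after each start, which were at hand for 8 of the 10 genes (not Apoc1 and Apoc3). A pair of AGGTCA copies in the same orientation with 1 base between them, the type of site PPARα binds with its partner RXR, was in 0 of the 8 genes' windows and in 0.0396% of the 32851 windows of all genes. Its looser form, a pair of AGGNCA copies spaced likewise, which includes the stricter pair, was also in 0 of the 8, and in 0.381% of all windows. The TATA-type sequence TATAAA stood at -31 to -26 of the Apoa5 start printed above. It was also in windows of Apoa2 (-212 to -207), Apob (-60 to -55) and Apoe (-96 to -91 on the plus and -100 to -95 on the minus strand of its second listed start), and in 13.6% of all windows. The single AGGTCA, which is part of the stricter pair, was found only in a window of Apoa2, at -238 to -233 on the minus strand of its second listed start, and in 16.3% of all windows. CAAAGNNCA, a form of the HNF4 site that was added after the sequences had been seen, stood at -182 to -174 of Apoa4 and, on the minus strand, at -103 to -95 of Apob, and was in 6.36% of all windows. These are matches of letters in short windows and say nothing on binding.

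Apoa4 encodes apolipoprotein A-IV, a protein of chylomicrons, VLDL and HDL that in mice is made in intestine and liver and rises in fatty liver. Its signal had a lowest, median and highest value of 7.89, 8.21 and 9.10 in Ppara-/- livers, and of 8.42, 9.96 and 10.40 in Ppara+/+ livers. The 4 Ppara+/+ mice 1 to 4 were between 9.92 and 10.40, above every Ppara-/- liver. Ppara+/+ mice 5 and 6, at 8.86 and 8.42, lay among the Ppara-/- livers, of which mouse 1 was the highest at 9.10. The groups thus overlapped, and in 4 of 6 Ppara-/- livers the signal was under the Ppara+/+ minimum. The mean was 8.34 ± 0.42 in Ppara-/- and 9.60 ± 0.78 in Ppara+/+ livers (SD, n = 6 each), a difference of -1.27 (SE 0.30, 95% interval -1.92 to -0.62), or 2.41-fold lower (limma adjusted p = 0.021). Among all genes 39, Apoa4 included, had a difference as far below 0.

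Apoa4 kept its call in 4 of 12 fits with 1 liver dropped, and the others called 851 to 959 of all genes, against 1443. The call ended (adjusted p 0.05 to 0.057) without any 1 of Ppara-/- mice 2, 4, 5 and 6 or Ppara+/+ mice 1 to 4. It was kept without Ppara-/- mouse 1 (0.0069) or 3 (0.033) and without Ppara+/+ mouse 5 (0.015) or 6 (0.0022), and the difference stayed between -1.50 and -1.11 over the 12 fits. Among the 6 lowest animal numbers the means were 8.65 in Ppara-/- and 10.09 in Ppara+/+ livers, a difference of -1.43 (adjusted p = 0.025). Among the 6 highest they were 8.18 in Ppara-/- and 8.64 in Ppara+/+ livers, a difference of -0.46 (adjusted p = 0.33), and whether these differences differ from each other was not tested. With the animal number as a covariate the difference was -1.16 (adjusted p = 5.9e-05). With a sex score as a covariate it was -1.06 (adjusted p = 0.064), and with the mean of erythroid markers, which spanned 10.87 to 10.97 in Ppara-/- and 10.69 to 10.94 in Ppara+/+ livers, it was -0.98 (adjusted p = 0.10). The sexes, the erythroid cells and the order of the animals moved with the values to this extent, and their part in the difference was not tested further. Over the limma fits on 11 or 12 livers the adjusted p ran from 5.9e-05 to 0.10, and the exact Mann-Whitney test gave 0.13.

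Since apolipoprotein A-IV is foremost an intestinal protein, markers of intestinal epithelium were read beside it. Of 10 such markers, 1 was lower and 2 were higher in Ppara-/- livers, beside 3.82% and 3.42% of all genes. Fabp2, the intestinal fatty acid-binding protein, fell by 1.07 (5.70 ± 0.40 in Ppara-/- and 6.76 ± 0.50 in Ppara+/+ livers, SD, n = 6 each, adjusted p = 0.0096). The brush border gene Vil1 rose by 0.73 (adjusted p = 2.1e-04) and the mucin Muc2 by 0.20, a call (adjusted p = 0.041) that most other settings ended. The mean level of the list ran from 6.08 to 6.27 in Ppara-/- and from 6.09 to 6.30 in Ppara+/+ livers.

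Apoa5 encodes apolipoprotein A-V, a scarce plasma protein made in the liver that promotes triglyceride hydrolysis by lipoprotein lipase. Its signal had a lowest, median and highest value of 8.58, 9.01 and 9.58 in Ppara-/- livers, and of 9.29, 10.07 and 10.32 in Ppara+/+ livers. In 5 of 6 Ppara+/+ livers it was between 10.02 and 10.32, above every Ppara-/- liver. The overlap came from Ppara+/+ mouse 6 alone, at 9.29, which lay below Ppara-/- mice 1 (9.58) and 3 (9.34). The mean was 9.05 ± 0.37 in Ppara-/- and 9.99 ± 0.36 in Ppara+/+ livers (SD, n = 6 each), a difference of -0.95 (SE 0.18, 95% interval -1.33 to -0.56), or 1.93-fold lower (limma adjusted p = 0.0055).

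The fall of Apoa5 was called whichever of the 12 livers was left out, with differences between -1.09 and -0.85 and adjusted p from 5.0e-04 to 0.017. It was also called with the sex score (-0.91, adjusted p = 0.019), the erythroid score (-0.82, 0.034) and the animal number (-0.90, 7.3e-04) as covariates. The 0.034 was the highest adjusted p over the limma fits on 11 or 12 livers, and the exact Mann-Whitney test gave 0.10. Among the 6 lowest animal numbers the means were 9.25 in Ppara-/- and 10.14 in Ppara+/+ livers (-0.88, adjusted p = 0.059), and among the 6 highest 8.95 in Ppara-/- and 9.71 in Ppara+/+ livers (-0.76, adjusted p = 0.27), so neither passed the threshold with 6 livers.

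**Figure D2:**
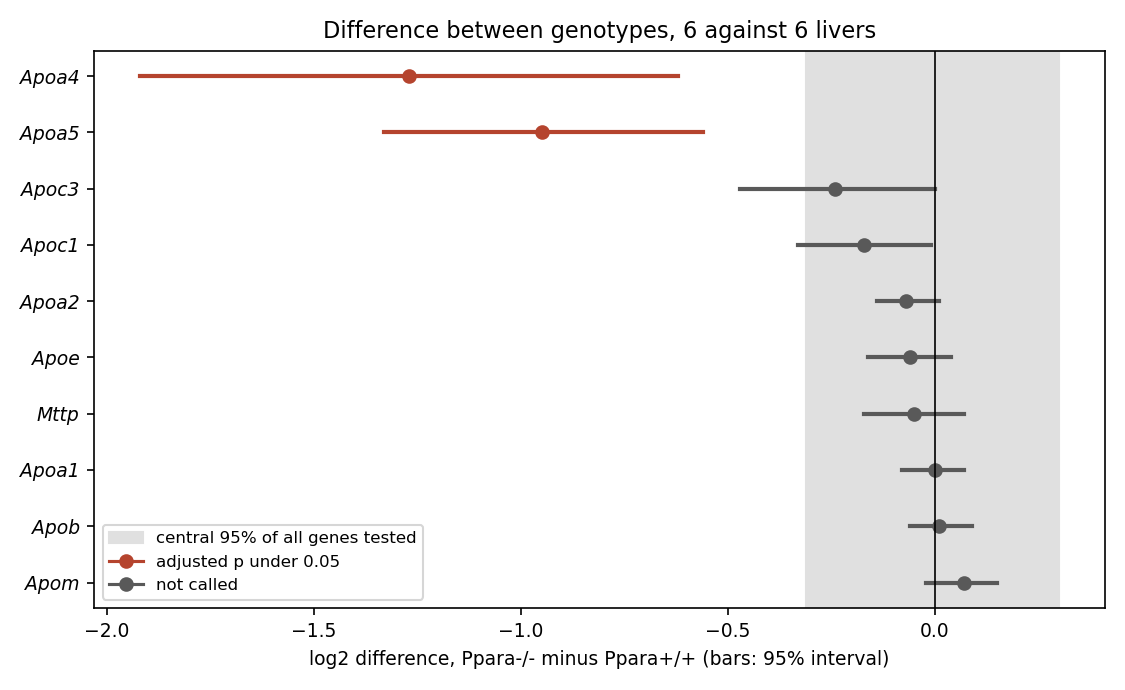
For each of the 10 genes, the log2 difference between genotypes (x axis, Ppara-/- minus Ppara+/+) and its 95% interval over 6 livers per genotype, with called genes in red, the others in dark grey, and the central 95% of the differences of all genes (-0.31 to 0.30) as a grey band. Apoa4 and Apoa5 lie outside the band, at -1.27 and -0.95, and the other 8 points lie inside it.

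Apolipoprotein C-III (Apoc3) inhibits lipoprotein lipase and the uptake of remnant particles. Its lowest, median and highest signals were 10.10, 10.34 and 10.62 in Ppara-/- livers and 10.27, 10.58 and 10.85 in Ppara+/+ livers. The ranges overlapped, with Ppara+/+ mice 5 and 6 again the lowest of their group (10.36 and 10.27) and Ppara-/- mouse 1 the highest of its own. The difference of -0.24 (SE 0.11, 95% interval -0.47 to 0.00) was not called (limma adjusted p = 0.24). Apolipoprotein C-I (Apoc1), which slows the clearance of triglyceride-rich particles in mice, behaved alike. Its signals were 12.35, 12.41 and 12.67 in Ppara-/- livers and 12.36, 12.67 and 12.77 in Ppara+/+ livers, a difference of -0.17 (SE 0.07, 95% interval -0.33 to -0.01, adjusted p = 0.21). Limma's array weights, which give less weight to arrays that deviate from their group, brought both below the threshold (Apoc3 adjusted p = 0.045, Apoc1 0.047).

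Apolipoprotein E (Apoe), the ligand by which the liver takes up remnants, was among the brightest genes of the arrays, with only 22 genes above it. Its lowest, median and highest signals were 13.03, 13.05 and 13.17 in Ppara-/- livers and 13.01, 13.14 and 13.23 in Ppara+/+ livers. The groups overlapped almost entirely, and the difference of -0.06 (SE 0.05, 95% interval -0.16 to 0.04) was not called (adjusted p = 0.56).

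Apoa1, Apoa2 and Apom, whose proteins are carried mainly on HDL, were not called. Apoa1 encodes the main HDL protein, which activates the cholesterol-esterifying enzyme LCAT. It had signals of 13.50, 13.51 and 13.54 in Ppara-/- livers and 13.46, 13.51 and 13.56 in Ppara+/+ livers, so the Ppara-/- livers lay within the range of the Ppara+/+ livers. The difference was 0.00 (SE 0.04, 95% interval -0.08 to 0.07, adjusted p = 0.97). Only 3 genes had a higher mean, and the highest signal on any array was 13.91. Array signals flatten towards the top of their range, and how far this narrowed the differences of the brightest genes was not tested.

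Apoa2, the second most abundant protein of HDL, had signals of 13.02, 13.03 and 13.09 in Ppara-/- livers and 13.07, 13.12 and 13.15 in Ppara+/+ livers. In 4 of 6 Ppara-/- livers it was below all Ppara+/+ livers, as for Apoa4 and Apoa5, but the difference was -0.07 (SE 0.04, 95% interval -0.14 to 0.01, adjusted p = 0.31). Apom, which carries sphingosine-1-phosphate in HDL, had signals of 11.14, 11.17 and 11.25 in Ppara-/- livers and 11.05, 11.11 and 11.19 in Ppara+/+ livers. Its difference of 0.07 (SE 0.04, 95% interval -0.02 to 0.15, adjusted p = 0.37) was the highest of the 10 genes.

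The 2 genes that build the VLDL particle itself lay close to 0. Apob encodes the scaffold protein of which each VLDL particle holds a single copy, and the array does not tell its full-length form from the form shortened by RNA editing. Its signals were 12.56, 12.61 and 12.65 in Ppara-/- livers and 12.56, 12.59 and 12.64 in Ppara+/+ livers, a difference of 0.01 (SE 0.04, 95% interval -0.06 to 0.09, adjusted p = 0.89). Mttp had signals of 10.54, 10.77 and 10.83 in Ppara-/- livers and 10.69, 10.77 and 10.87 in Ppara+/+ livers, a difference of -0.05 (SE 0.06, 95% interval -0.17 to 0.07, adjusted p = 0.71). The lowest Mttp signal was that of Ppara-/- mouse 1, the liver with the highest Apoa4 and Apoa5 of its group. P4hb, the partner subunit of MTP and named here for that role after its value had been seen, averaged 12.41 ± 0.13 in Ppara-/- and 12.21 ± 0.24 in Ppara+/+ livers (SD, n = 6 each, difference 0.20, adjusted p = 0.27).

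Beyond genotype, most of the 10 genes varied from liver to liver in 2 patterns. After the mean of each genotype had been taken off, Apoa4 deviated with Apoc1 (Pearson r = 0.91, Spearman rho = 0.90 over 12 livers), Apoe (r = 0.91, rho = 0.85) and Apoc3 (r = 0.89, rho = 0.88), and with Apoa5 (r = 0.76, rho = 0.66). Apoc1 and Apoe, neighbours on chromosome 7, had the highest correlation of all 45 pairs (r = 0.94, rho = 0.91). Among Apoa2, Apoa4, Apoa5, Apoc1, Apoc3 and Apoe, a set chosen after these values had been seen, the 15 correlations lay between 0.67 and 0.94. They lay between 0.54 and 0.88 without the 2 livers that deviated most in the first gene of each pair. Apoa1, Apob and Mttp varied apart from this set. Their 18 correlations with it lay between -0.29 and 0.38, and the 3 among themselves between 0.44 and 0.63. Without the 2 livers chosen in the same way, these ranges were -0.60 to 0.49 and 0.34 to 0.62. Whether the genotypes differ in this was not tested. Within the 6 Ppara-/- livers, r with the set was -0.71 to -0.38 for Mttp, -0.25 to 0.1 for Apob and -0.6 to 0.39 for Apoa1. Ppara-/- mouse 1 had the lowest Mttp (10.54) and the highest Apoa4 (9.10) and Apoc1 (12.67) of its group. With 6 livers, 1 such liver weighs heavily on r, and r without it was not computed. Within the 6 Ppara+/+ livers, r with the set was 0.02 to 0.65 for Mttp, 0.28 to 0.59 for Apob and -0.23 to 0.45 for Apoa1. Among Apoa1, Apob and Mttp themselves, r was -0.04 to 0.58 in Ppara-/- and 0.68 to 0.91 in Ppara+/+ livers. Apom belonged to neither pattern, with r of 0.34 to 0.58 with the 6 genes, 0.62 with Apob, 0.46 with Mttp and 0.31 with Apoa1. Apoa1 and Apoa4, in the same gene cluster, had an r of 0.00 (rho = -0.17). These values are descriptions over livers that share litters and array processing.

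**Figure D3:**
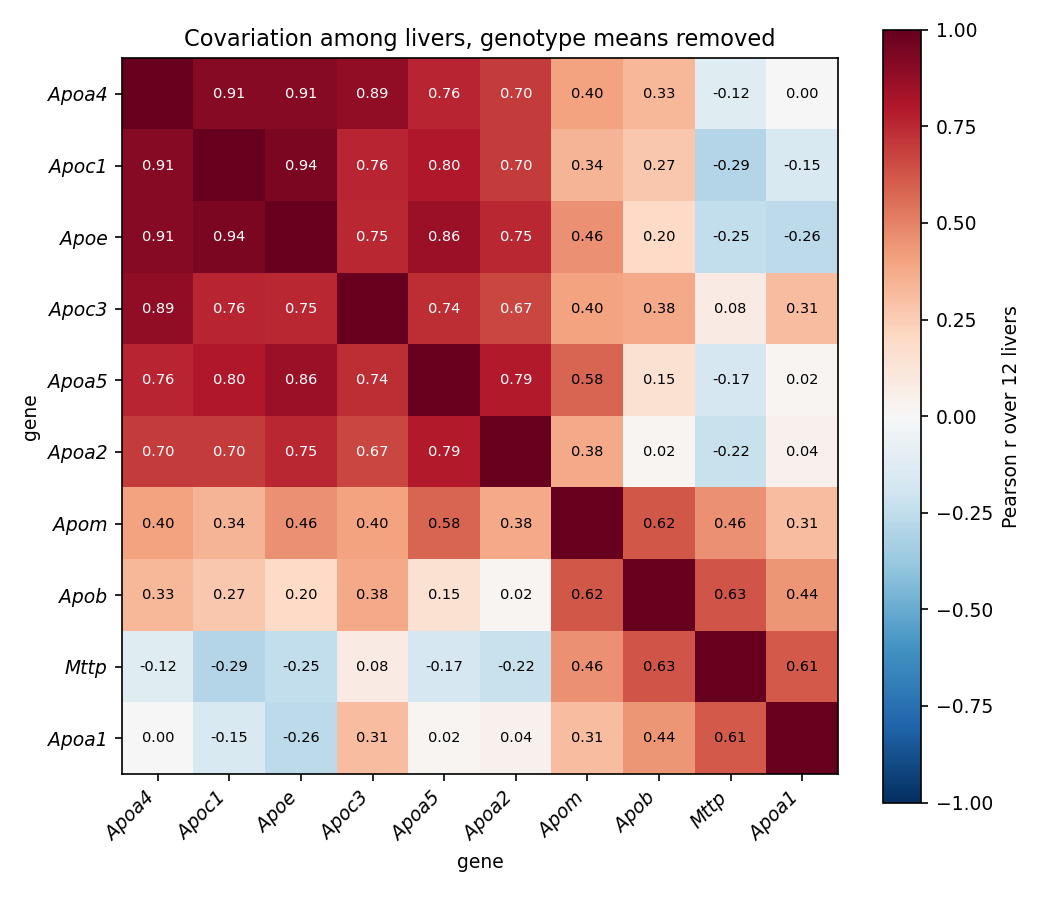
Pearson correlation (colour and number) between each pair of the 10 genes (both axes) over 12 livers, after the genotype means had been removed. The 6 genes at the upper left deviate together, with r of 0.67 to 0.94, and Apob, Mttp and Apoa1 at the lower right do not follow them (-0.29 to 0.38).

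Among the other 19928 genes, those with deviations most like Apoa4's were Slc6a13, a GABA and taurine transporter of hepatocytes (r = 0.99), Lbp, the lipopolysaccharide-binding protein of plasma (r = 0.99), the iron sensor Tfr2 (r = 0.98), the calcium channel Itpr2 (r = 0.97) and Gdf3 (r = 0.97). Between genotypes 0 of these 5 were called by limma, with 4 lower at an unadjusted p under 0.05. Lbp averaged 11.69 ± 0.12 in Ppara-/- and 11.92 ± 0.20 in Ppara+/+ livers (SD, n = 6 each, adjusted p = 0.13), and Slc6a13 averaged 10.84 ± 0.15 in Ppara-/- and 10.94 ± 0.25 in Ppara+/+ livers (SD, n = 6 each, adjusted p = 0.68). Those most like Apoa5's were Epb41l1 (r = 0.93), Mustn1, Ttbk2, Sirpa and Mapk6 (r = 0.92 each), with 0 of the 5 called by limma and 3 lower at an unadjusted p under 0.05. For neither set of 5 was the unadjusted count set beside the share of all genes, so it is a description only.

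The gene neighbourhood was compared because both called genes share a cluster. In order along chromosome 9 come Sidt2, Pafah1b2, Sik3, Apoa1, Apoc3, Apoa4, Apoa5, Zpr1 and Bud13. The 2 called apolipoprotein genes were thus flanked by Apoc3 on the one side and by Zpr1 and Bud13 on the other, whose differences were 0.00 each (95% intervals -0.16 to 0.16 and -0.14 to 0.15). Beyond Apoa1, the kinase gene Sik3 was higher by 0.24 (adjusted p = 0.036) and Pafah1b2, a subunit of a platelet-activating factor hydrolase, fell by 0.16 (adjusted p = 0.029). On chromosome 7 the 3 measured apolipoprotein genes in the order Apoc4, Apoc1 and Apoe were not called (Apoc4 -0.08, adjusted p = 0.55, named after its value had been seen). Past Apoe and Tomm40, the adhesion genes Nectin2 and Bcam went opposite ways. Nectin2 fell by 0.66 (7.58 ± 0.11 in Ppara-/- and 8.24 ± 0.10 in Ppara+/+ livers, SD, n = 6 each, adjusted p = 1.1e-05) and Bcam rose by 0.21 (adjusted p = 0.017), with no overlap between the genotypes in either. The call of Bcam ended with the sex score and with the erythroid score as a covariate (adjusted p up to 0.079).

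**Figure D4:**
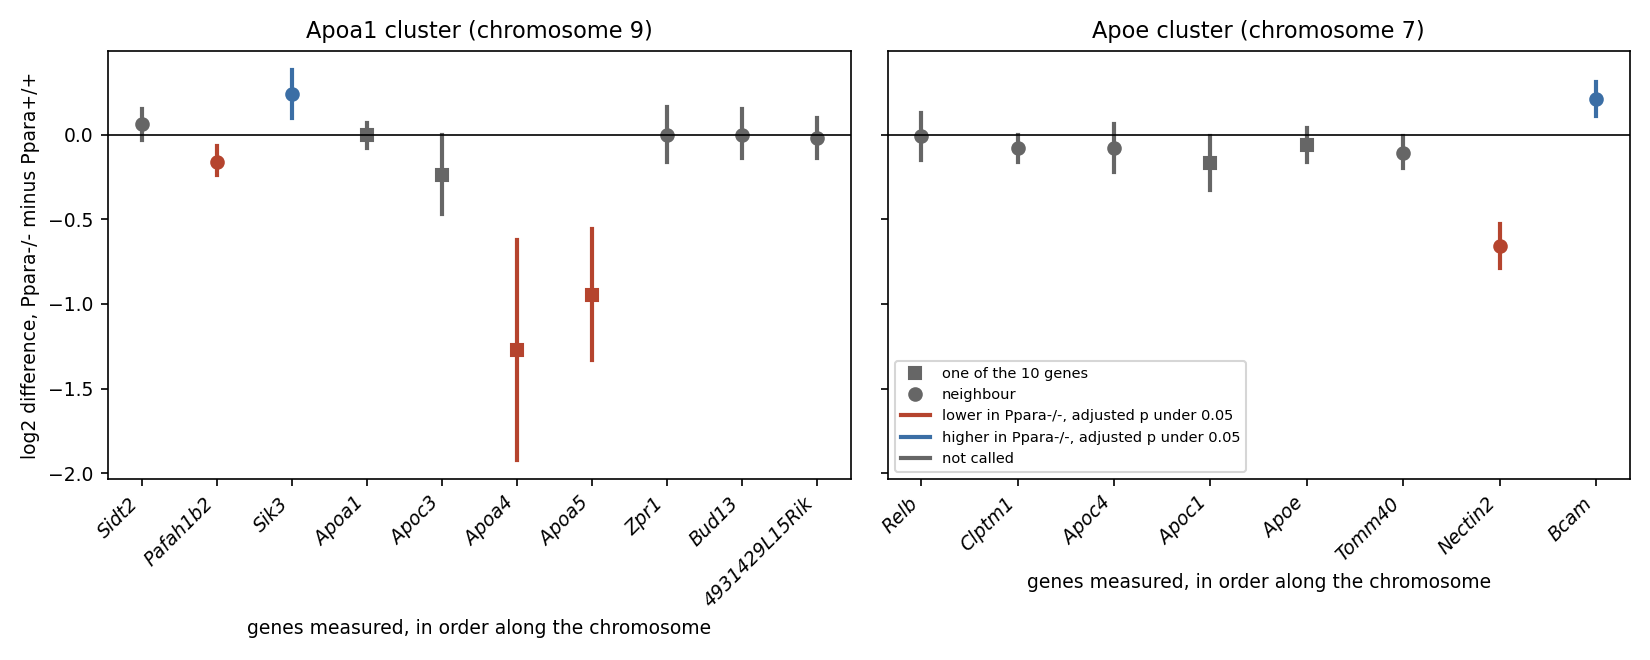
Differences on the log2 scale (y axis, Ppara-/- minus Ppara+/+) and their 95% intervals for measured genes in their order along the Apoa1 cluster of chromosome 9 (left) and the Apoe cluster of chromosome 7 (right); squares are the genes of the set of 10, circles their neighbours. Apoa4 and Apoa5 stand at -1.27 and -0.95, with Apoc3 at -0.24 on one side and Zpr1 and Bud13 at 0.00 on the other, and on chromosome 7 the lowest point is Nectin2 at -0.66.

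Related genes of the pathway, and the neighbours of both gene clusters, were read from 8 lists of 85 measured genes in all. Of these 18 were called (21.2%, beside 7.24% of all genes), 13 lower and 5 higher in Ppara-/- livers (3.82% and 3.42% of all genes). The lists were chosen with results of these data known, so the share is a description. Of the 18 calls 11 held whichever liver was left out. Among 11 other apolipoproteins, 1 fell. Apon, apolipoprotein N, had a lowest, median and highest signal of 7.76, 7.91 and 8.82 in Ppara-/- livers and of 8.42, 9.25 and 9.59 in Ppara+/+ livers. Its difference of -1.05 (SE 0.20, adjusted p = 0.0055) lay between those of Apoa4 and Apoa5, and the livers that overlapped were again Ppara-/- mouse 1 and Ppara+/+ mouse 6. The call of Apon held without any 1 liver. The median difference of the list was -0.05. Apof, whose protein restrains cholesteryl ester transfer in humans, was not called and averaged 12.24 ± 0.07 in Ppara-/- and 12.40 ± 0.08 in Ppara+/+ livers (SD, n = 6 each, adjusted p = 0.059).

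Among 23 helpers of VLDL assembly and secretion, 3 fell and 0 rose, and the median difference was 0.00. Ces1d, a lipase that releases stored triglyceride for VLDL, had signals of 10.47, 10.85 and 11.08 in Ppara-/- livers and 11.33, 11.74 and 11.88 in Ppara+/+ livers, without overlap (-0.84, SE 0.11, adjusted p = 3.2e-04). Tmem41b, a lipid scramblase of the endoplasmic reticulum, fell by 0.25 (adjusted p = 0.022) and Mia2, an export receptor for bulky cargo, fell by 0.20 (adjusted p = 0.029). Both calls ended with the sex score, with the erythroid score, and in some fits with 1 liver dropped. Tmem41b lost its call when any 1 of Ppara-/- mice 2, 4 and 5 and Ppara+/+ mice 1, 3 and 4 was dropped (adjusted p up to 0.059), and Mia2 when 1 liver was dropped out of Ppara-/- mice 2 to 6 or Ppara+/+ mice 2 to 4 (up to 0.075).

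Genes that handle the particles in plasma and return them to the liver changed in both directions. Of 8 receptors and their controls, 2 fell and 0 rose: Lrp1, which takes up Apoe-bearing remnants, fell by 0.41 with no overlap (10.49 ± 0.12 in Ppara-/- and 10.90 ± 0.08 in Ppara+/+ livers, SD, n = 6 each, adjusted p = 6.5e-04), and the heparan sulfate proteoglycan Sdc1, another remnant receptor of mouse liver, by 0.36 (adjusted p = 0.016). The call of Sdc1 ended with the sex score and with the erythroid score as a covariate (adjusted p up to 0.077). Of 6 regulators of lipolysis, Angptl4, which inhibits lipoprotein lipase, fell by 0.55 and Vldlr, a receptor for triglyceride-rich particles, rose by 1.21 (adjusted p = 0.014 and 5.3e-07). Of 8 genes of HDL formation, the phospholipid transfer protein Pltp fell by 0.22 (adjusted p = 0.033) and Abca1, which hands cholesterol to apolipoprotein A-I, rose by 0.21 (adjusted p = 0.046). Pltp lost its call when 1 liver was dropped out of Ppara-/- mice 4 to 6 or Ppara+/+ mice 1 to 3 (adjusted p up to 0.077). That of Abca1 held only without Ppara-/- mouse 1 or Ppara+/+ mouse 6, and reached 0.11 without another liver. The sex score as a covariate ended both calls, and the erythroid score ended that of Abca1.

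Of 20 transcription factors known at apolipoprotein genes, 3 fell and 1 rose. Creb3l3 encodes CREBH, a membrane-bound factor known in mice to activate Apoa4, Apoa5 and other genes of triglyceride clearance. It had signals of 9.77 to 9.95 in Ppara-/- livers and 10.24 to 10.43 in Ppara+/+ livers, with no overlap, a difference of -0.48 (SE 0.04, adjusted p = 1.0e-05). Ppara+/+ mice 5 and 6 had the lowest Creb3l3 of their group too, at 10.30 and 10.24. Unlike for Apoa4, both lay above the range of the Ppara-/- livers. The bile acid receptor gene Nr1h4 fell by 0.31 (adjusted p = 0.0082) and Rora, an orphan receptor gene, rose by 0.29 (adjusted p = 0.0091), both with no overlap. The oxysterol receptor gene Nr1h3, which activates Abca1, fell by 0.34 (adjusted p = 0.033) and lost this call when any 1 of Ppara-/- mice 2, 4, 5 and 6 and Ppara+/+ mice 1 to 4 was dropped (up to 0.08). Nr1h3 also lost it with the sex score and with the erythroid score as a covariate. Hnf4a, a general activator of apolipoprotein genes in hepatocytes, was named for that role after its value had been seen, and averaged 11.38 ± 0.04 in Ppara-/- and 11.44 ± 0.03 in Ppara+/+ livers (SD, n = 6 each, adjusted p = 0.38).

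**Figure D5:**
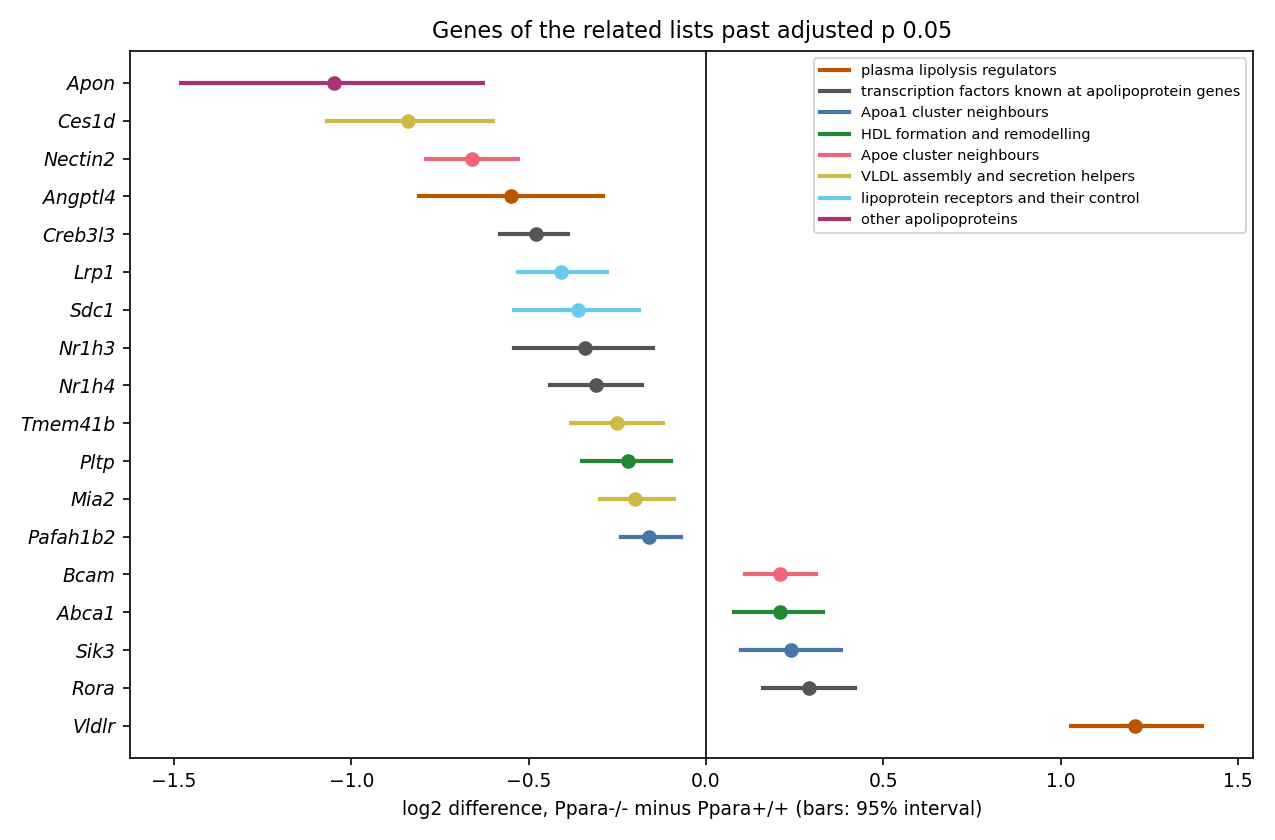
Differences on the log2 scale (x axis, Ppara-/- minus Ppara+/+) and their 95% intervals for the 18 called genes of the 8 related lists (y axis), coloured by list. Apon (-1.05) and Ces1d (-0.84) are the lowest and Vldlr (1.21) is the highest.

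The calls of Sik3 and Pafah1b2, the neighbours of the chromosome 9 cluster, also ended in some fits with 1 liver dropped. Both ended with the sex score as a covariate, and that of Sik3 with the erythroid score. Sik3 lost its call when 1 liver was dropped out of Ppara-/- mice 2 to 6 or Ppara+/+ mice 1, 3, 4 and 5 (adjusted p up to 0.088), and Pafah1b2 when any 1 of Ppara-/- mice 2, 4, 5 and 6 and Ppara+/+ mice 2, 3 and 5 was dropped (up to 0.07). Among the markers of other cells, 0 of 10 erythroid, 0 of 10 granulocyte and 0 of 7 endothelial genes were called by limma. At an unadjusted p under 0.05, 2 erythroid and 3 granulocyte markers were higher and 1 endothelial marker was lower. The share of all genes at this limit was not counted. Of 10 macrophage markers 2 rose, Csf1r by 0.23 and Cd5l by 0.40 (adjusted p = 0.0096 and 0.041), and at an unadjusted p under 0.05 there were 3 higher and 1 lower. Cd5l was called in 3 of 12 fits with 1 liver dropped, not without a liver out of Ppara-/- mice 2 to 6 or Ppara+/+ mice 1 to 4 (adjusted p up to 0.099), nor with the sex score, the erythroid score or the block of animal numbers. The mean level of the macrophage list ran from 9.11 to 9.29 in Ppara-/- and from 9.07 to 9.18 in Ppara+/+ livers. Of 7 stellate and mesenchymal markers 1 fell and 1 rose. Desmin (Des) fell by 0.39 (7.19 ± 0.15 in Ppara-/- and 7.57 ± 0.20 in Ppara+/+ livers, SD, n = 6 each, adjusted p = 0.018), whichever liver was dropped but not with the erythroid score (0.052). Reln rose by 0.16 (adjusted p = 0.034), in 3 of 12 fits with 1 liver dropped, and lost its call in the same 9 fits as Cd5l (up to 0.082). The mean level of the list ran from 9.10 to 9.28 in Ppara-/- and from 9.06 to 9.36 in Ppara+/+ livers. The part of these cells in the values of the apolipoprotein genes was not tested.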

How the data were processed

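RNA of whole E19.5 livers with an integrity number over 8 was hybridized to Affymetrix Mouse Gene 1.0 ST arrays, 1 liver per array. RMA, which subtracts background, brings arrays to a common distribution and combines the probes of a probeset, gave the log2 values that the authors deposited. Neither its version nor the genome build is given in the sources used here. Of 35556 probesets, 21789 had 1 gene symbol in the platform's table, 1621 several and 12146 none. The brightest single-symbol probeset stood for a gene, which gave 19938 genes with no filter on dim signals. Each of the 10 genes had 1 probeset.

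Genotypes were taken from the labels, 6 against 6, and the mouse numbers of the titles serve as names of livers. Moderated linear models (limma 3.58.1, R 4.3.3) without covariates gave two-sided p-values, adjusted by Benjamini-Hochberg over all genes. The procedure was tested on simulated arrays. According to the methods the RNA of each genotype came from fewer litters than livers, so some livers share a litter, which the p-values do not allow for. Arrays have no read depth, and their number limits precision.

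The 10 genes, the related lists and the marker lists were chosen with earlier results of these data known. The text names all 10 genes, Ppara, from each related list the called genes and some with the next smallest p, and for each called gene of the 10 the 5 genes that deviated most like it; exceptions are named as such. Gene order and promoters are RefSeq's (GRCm38.p6). Other settings were renewed normalization, signal filters, other probesets, eBayes variants, weights, blocks, covariates (sex score, Xist minus Y-linked genes; erythroid score, the mean of the erythroid markers; animal number), animal number subsets, an exact Mann-Whitney test, and fits with 1 liver dropped at a time. The animal number together with the sex score was added after the data had been seen.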

Additional observations from a re-analysis of the deposited data

Results flagged for a closer look

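A sample far from the rest of its group was looked for in each of the 10 genes and Ppara with Dixon's test at its 95% critical value (0.625 for 6 samples). Of 22 groups tested, 2 passed it, where chance gives about 1 in 20. Apoa5 in Ppara+/+ mouse 6 was 9.29, while the other 5 Ppara+/+ livers lay between 10.02 and 10.32. Without that liver the difference of Apoa5 was -1.09 (limma adjusted p = 5.0e-04). Apoa1 in Ppara-/- mouse 4 was 13.54, while the other 5 Ppara-/- livers lay between 13.50 and 13.51, a gap that is small beside the range of the Ppara+/+ livers (13.46 to 13.56).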

How the results depend on the processing

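The 2 calls among the 10 genes became 1, Apoa5, with an intensity trend and robust variances, with the sex score and with the erythroid score, 1, Apoa4, among the 6 lowest animal numbers, 4 with array weights (Apoc1 and Apoc3 added), 0 among the 6 highest animal numbers, and 1 to 2 without single livers. The exact Mann-Whitney test called 0 of the 10 and 0 of all genes (smallest adjusted p = 0.06), with 4 of the 10 and 3686 of all genes at an unadjusted p under 0.05. With 6 livers per genotype its smallest possible two-sided p is 0.0022, which became 0.06 after adjustment over all genes. Too few genes reached this p here for its adjusted value to fall under 0.05, so this test called no gene. Over all genes the 1443 calls became 2743 with array weights, 850 with the sex score, 667 with the erythroid score, 936 with the 2 sets of animal numbers as a block, 193 and 223 within the lowest and highest set, and 851 to 2521 without single livers. Calls in the related lists ran from 11 to 33 without single livers, against 18. Of these 18, the sex score ended 9 (Abca1, Bcam, Mia2, Nr1h3, Pafah1b2, Pltp, Sdc1, Sik3 and Tmem41b). The erythroid score ended 7, the same genes without Pafah1b2 and Pltp. The block of animal numbers ended 6 (Abca1, Mia2, Pafah1b2, Pltp, Sik3 and Tmem41b). The animal number as a covariate brought P4hb to a call (limma adjusted p = 0.042). Each of the 10 genes has 1 probeset, so other probeset rules left their values as they were.

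With the mouse number of the titles as a replicate block, 1619 genes were called, 2 of them among the 10. The correlations of same-numbered livers were 0.37, 0.09, 0.39, 0.02, 0.14 and 0.13. Livers of different numbers were not compared in this way, so whether same-numbered livers share more than a number was not tested. This block ended the calls of Mia2, Abca1, Muc2 and Reln and of no other called gene named in the report.

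Values near 0 changed sign. Apoa1 was 0.01 with the erythroid score and among the 6 highest animal numbers, and between -0.01 and 0.01 without single livers. Apob was -0.03 among the 6 lowest. Apoe (0.01), Mttp (0.04) and P4hb (-0.04) turned among the 6 highest. Zpr1 was 0.00 with array weights, -0.03 with the sex score, the erythroid score, animal number with sex score and among the 6 lowest, -0.01 with the animal number, -0.06 with the block of animal numbers and -0.10 among the 6 highest. Bud13 was 0.00 with array weights and the animal number, -0.02 with the erythroid score, -0.01 with the block and -0.07 among the 6 highest. Without single livers Zpr1 ran from -0.04 to 0.05 and Bud13 from -0.02 to 0.05. The cause of these changes was not tested.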
